A study of Mus musculus with 4 samples.

Results

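The 9 genes described here, of the IL-6 cytokine family and its signalling pathway, were followed through the cell types of mouse long bone: the cytokines *Il6*, *Il11* and *Lif*, the receptor chains *Il6ra*, *Il6st*, *Osmr* and *Lifr*, the transcription factor *Stat3* and the feedback inhibitor *Socs3*. Their rows were found by gene symbol, and they are 9 of the 53703 features counted. The single-cell RNA sequencing (scRNA-seq) libraries were made from metaphyseal bone (femur and tibia) of 12-week-old C57BL/6 mice, after depletion of hematopoietic cells. The methods state for the study as a whole that both sexes were used, and do not give the sex for these libraries. In the 2 *Lats2*iΔEC libraries both *Lats2* alleles were floxed (*Lats2* lox/lox) and the tamoxifen-inducible recombinase *Cdh5(PAC)-CreERT2* was present, whose *Cdh5* promoter is active in endothelial cells. The 2 control libraries came from littermates without Cre. Mice of both genotypes were injected with tamoxifen when young, as the methods state, although the treatment label of the controls reads untreated. A membrane and nuclear fluorescent reporter was also bred into this background. *Lats2* encodes a Hippo pathway kinase, so the comparison of genotypes asks how the family behaves in each stromal cell type when the kinase is removed from endothelium alone.

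Cytokines of this family share the signal-transducing receptor chain gp130, the product of *Il6st*. IL-6 first binds IL-6Rα (*Il6ra*), LIF joins gp130 with the LIF receptor (*Lifr*), and oncostatin M joins gp130 with its own receptor chain (*Osmr*). Janus kinases bound to gp130 then phosphorylate STAT3, which activates *Socs3*, and SOCS3 protein in turn binds gp130 and the kinases and dampens the signal. In bone the family is known for its actions on osteoblasts, on the stromal support of osteoclast formation and on cartilage.

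The libraries held between 69636600 and 85899079 unique molecular identifiers (UMIs) in all, and 24599 barcodes passed the filters, 5119 and 5887 in mutants and 6813 and 6780 in controls, with median UMIs per barcode between 7574 and 8181. Between 22 and 40 barcodes of each library also occurred in another library. A score on marker genes, none of which is a family member, assigned 20039 barcodes (81.5%) to classes. Barcodes left unassigned made up 26.6% and 27.7% in mutants against 11% and 12.1% in controls, and they took no part in the comparisons of classes. When barcodes were clustered instead, 1663 of these 4560 lay in clusters named as chondrocytes and 693 in clusters named as metaphyseal stromal cells. The mutant classes may thus lack more of their cells than the control classes. Each name below stands for a class of cells gated as that type by these markers. The 7 main classes were endothelial cells (ECs), diaphyseal and metaphyseal mesenchymal stromal cells (dpMSCs and mpMSCs), osteoblasts (OBs), chondrocytes (CHOs), smooth muscle cells (SMCs) and fibroblasts. Markers kept out of the score were mostly highest in their own class, but *Ibsp* was highest in CHOs, *Comp* and *Ndufa4l2* in fibroblasts, *Pdgfra* in dpMSCs and *Cd248* in SMCs. In ECs the *Cre-ERT2* transcript was higher in mutants by 6.12 on the log2 scale (SE 0.22, edgeR quasi-likelihood test, adjusted p = 1.06e-09) and *Lats2* differed by -0.37 (SE 0.07, adjusted p = 0.000554). By the same test within ECs, *Lats2* differed by -0.49 in arterial (adjusted p = 0.0025) and -0.49 in capillary-like ECs (adjusted p = 0.0023). In bone marrow ECs the *Lats2* difference was only -0.07 (SE 0.14, adjusted p = 0.75). Whether the counted 3′ tags of *Lats2* lie in the deleted part is not stated in the sources used here. The classes differed in size between genotypes, and OBs numbered 676 and 690 barcodes in controls and 131 and 150 in mutants, so all levels are given as CPM, the gene's counts per 1000000 counts of the class in that library.

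The promoter of *Socs3* and those of the cytokine genes carry short sequences that are recognised by factors at either end of the signal, which is why they are shown. All coordinates are on GRCm39 with starts of canonical transcripts from GENCODE M39, and positions are counted as bases before the transcript start. *Socs3* (chromosome 11, 117856905 to 117860898, minus strand, 2 exons) has 1 match to TTCNNNGAA, the palindrome that STAT dimers bind, in the 250 bases before its start, beginning 223 bases before it. The canonical transcript starts inside this gene span, so the window before that start lies inside the span as well. The same holds for *Il11* and *Lifr*. Capitals mark the match in bases 250 to 101 before the start, chr11:117860224-117860373, minus strand.
Socs3: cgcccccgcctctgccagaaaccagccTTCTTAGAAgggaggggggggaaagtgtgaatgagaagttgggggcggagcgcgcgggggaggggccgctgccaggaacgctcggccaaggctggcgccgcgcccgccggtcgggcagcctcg
This motif, searched on both strands, was in the window of 1 of the 9 genes and of 7.699% of 21770 protein-coding genes. The AP-1 motif TGANTCA, searched in the same way, was in the windows of all 3 cytokine genes, of none of the other 6 members and of 6.174% of protein-coding genes. In the stretches below, capitals mark it at 249 bases before the start of *Il6* (chr5:30217862-30217889, plus strand), 98 bases before that of *Il11* (chr7:4781212-4781258, minus strand) and 217 bases before that of *Lif* (chr11:4207320-4207366, plus strand).
Il6: cTGAGTCActtttaaagaaaaaaaagaa
Il11: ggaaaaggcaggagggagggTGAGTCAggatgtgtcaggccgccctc
Lif: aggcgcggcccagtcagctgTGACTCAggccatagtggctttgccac
The TEAD motif GGAATG, bound by the partners of the Hippo effectors YAP and TAZ, was found in the window of *Stat3* and of none of the other 8 genes, against 12.113% of protein-coding genes. A match describes these letters only, and no binding was measured.

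In control bone the receptor chains were spread unevenly over the cell types, and the cytokines were scarce in all 7 main classes. Each class was tested against the mean of the other main classes in the 2 control libraries (edgeR quasi-likelihood test, Benjamini-Hochberg adjustment over 8802 genes). Of 42 combinations of the 6 non-cytokine members with a class, 36 passed in either direction. Of all genes, between 26.7% and 41.3% passed higher and between 30% and 41.9% lower, by class. With both directions together most genes passed in every class, as in ECs (39% higher and 41.9% lower) and SMCs (26.7% and 30%). The count is thus no result about the members. The differences below are on the log2 scale and compare classes within 1 gene, since the values are not corrected for gene length. The CPM given beside them are not scaled by TMM, the library scaling of the edgeR fit, so orders in CPM and in the fit can differ. With 2 libraries a genotype, an exact permutation test could not go below p = 0.333, so all tests come from models fitted across genes. Tests of genotype within a class measure the spread between libraries. Tests of class levels, and of genotype effects between classes, hold library as a block. They measure the spread left within libraries.

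*Il6st* (gp130) was highest in ECs, which held 44.9% and 41.6% of its counts in the control libraries and were 12.3% and 12.1% of the barcodes. Its control levels were 737 and 709 CPM in ECs, 194 and 198 in dpMSCs, 158 and 156 in mpMSCs, 109 and 127 in fibroblasts, 93.9 and 78.0 in SMCs, 62.7 and 64.7 in CHOs and 42.1 and 44.0 in OBs. No neighbours in this order overlapped. ECs stood 2.60 above the mean of the other classes (adjusted p = 1.2e-15). Among ECs, bone marrow ECs (bmECs, gated on *Stab2* and other sinusoidal genes) had 1385 and 1364 CPM, capillary-like ECs (capECs, gated on *Aplnr*, *Ramp3* and *Fmo2* among others) had 505 and 457 CPM, and arterial ECs (aECs, gated on *Gja4* and *Gja5* among others) had 256 and 216 CPM. The sinusoidal ECs were thus the highest of the 3 endothelial groups in both control libraries. The paper uses *Ramp3* as a marker of metaphyseal ECs and *Fmo2* of arteriole-like ECs, so the capEC gate may mix these groups.

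*Lifr*, which binds LIF, marked mpMSCs, the osteogenic stromal cells of the metaphysis. Its control levels were 3767 and 3701 CPM there, 3.81 above the mean of the other classes (adjusted p = 8.8e-17). The levels in dpMSCs, at 690 and 656 CPM, and in OBs, at 694 and 647 CPM, overlapped, but in the scaled fit OBs stood 1.90 and dpMSCs 0.89 above the mean of the other classes. ECs had 229 and 203 CPM, SMCs 206 and 190, and CHOs 186 and 181, with ECs and SMCs overlapping. Fibroblasts had the lowest values of the 7 classes, at 35.7 and 32.7 CPM.

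*Osmr*, the chain that gives oncostatin M its own receptor, was highest in ECs (166 and 163 CPM) and dpMSCs (140 and 131 CPM) and lowest in OBs (6.7 and 5.1 CPM, 3.25 below the mean of the others on the log2 scale). The 4 classes between them, CHOs, SMCs, mpMSCs and fibroblasts, lay between 56.9 and 91.6 CPM, and SMCs overlapped with each of the other 3. *Il6ra*, the subunit that makes a cell responsive to IL-6 itself, had 50.7 and 46.9 CPM in fibroblasts, 25.9 and 26 in CHOs, and 11.4 and 16.3 in SMCs. It stood above the mean of the other classes by 3.51 in fibroblasts and 2.54 in CHOs. The other 4 classes lay at 6.2 CPM or lower, and OBs at 0.5 and 0.4 CPM.

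*Stat3* had 303 and 295 CPM in dpMSCs, 295 and 292 in ECs, 267 and 268 in CHOs and 80.3 and 77.7 in OBs, the lowest class. In the scaled fit CHOs stood highest (0.69 above the mean of the others), before dpMSCs (0.42) and ECs (0.39). *Socs3* was highest in CHOs (298 and 333 CPM) and dpMSCs (316 and 288 CPM), which overlapped, while the scaled fit put CHOs 1.47 and dpMSCs 0.94 above the mean of the others. Fibroblasts followed with 220 and 250 CPM, then ECs with 123 and 130, mpMSCs with 119 and 112, SMCs with 98.7 and 84.4, and OBs with 44.0 and 48.1. Droplets that held no cell show the makeup of the free RNA. For *Socs3* the control values were 173 and 178 CPM in empty droplets and 15.7 and 16.1 CPM in erythroid cells, and free RNA was estimated from absent marker genes to make up between 0.4% and 2.7% of the UMIs in the main classes.

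**Figure D1:**
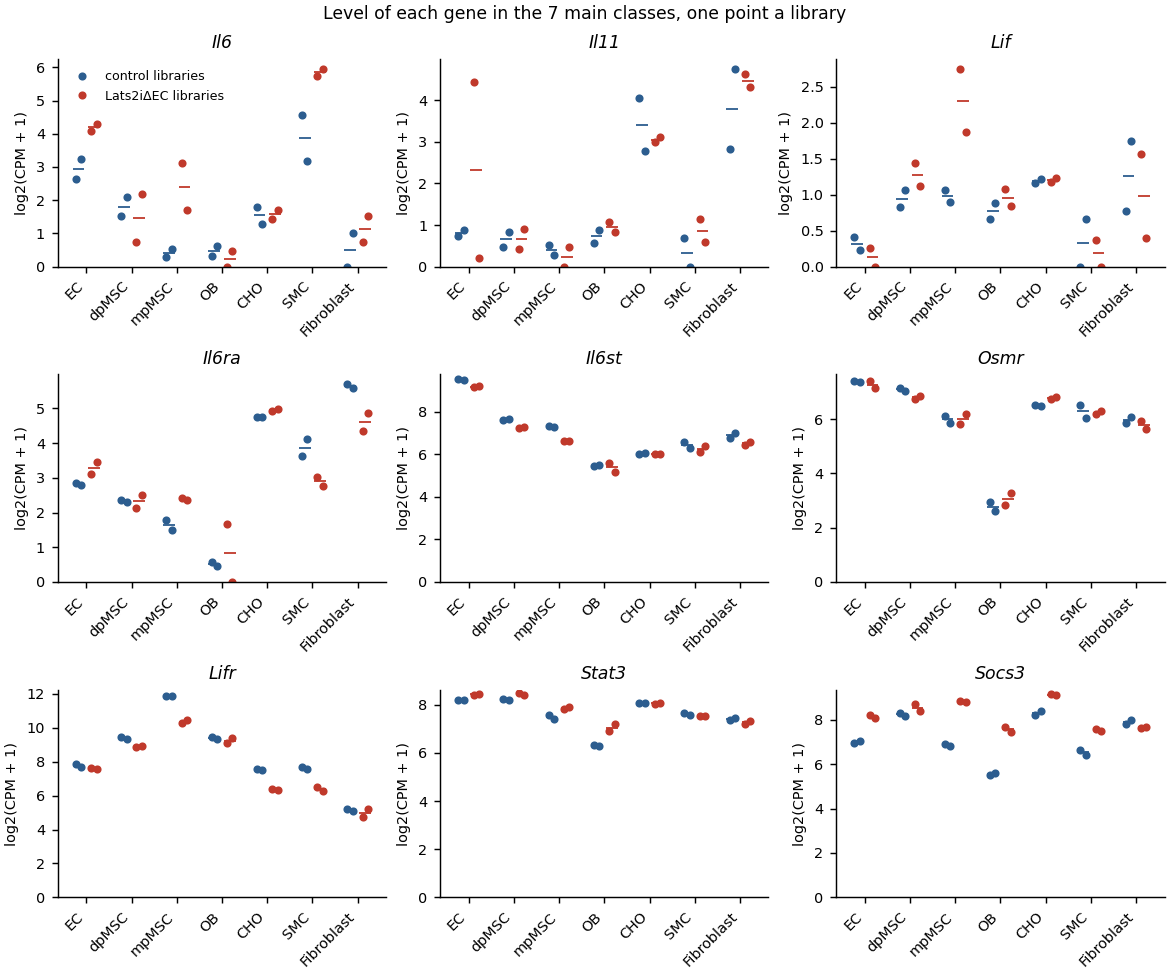
Level of each of the 9 genes, as log2(CPM + 1) on the vertical axis, in the 7 main classes, with 1 point per library (blue, control; red, *Lats2*iΔEC) and a line at the mean of each genotype. *Lifr* peaks in mpMSCs and falls there in mutants, *Il6st* peaks in ECs, and *Socs3* is higher in both mutant libraries than in both controls in every class except fibroblasts.

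Between genotypes, *Socs3* rose and *Lifr* fell in several stromal classes, and *Il6*, found in few cells, rose in SMCs and ECs. Genes entered the test when they passed edgeR's expression filter and were detected in 20% or more of the class's cells in 1 genotype or both, and a call is an adjusted p of at most 0.05 over all genes tested in the class. In ECs, 3 of 5 tested members were called, 2 higher and 1 lower, where 30% of all genes were called higher and 30.5% lower. In dpMSCs all 5 tested members were called, 2 higher and 3 lower, against 20.7% of all genes in each direction. In mpMSCs 4 of 5 were called, 2 each way, against 21.5% higher and 19.3% lower. In CHOs 4 of 6 were called, 3 higher and 1 lower, against 30.5% in each direction, and in SMCs 2 of 5, 1 each way, against 23.5% higher and 23.7% lower. In OBs 2 of 4 were called, both higher, where 7.26% of all genes were called higher and 3.27% lower. In fibroblasts 1 of 6 was called, lower, against 2.4% higher and 1.62% lower.

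Calls were common among all genes in the larger classes, so sizes matter more than counts. Genotypes whose library values do not overlap reach only p = 0.333 in an exact permutation test. Non-overlap therefore describes the values below and is not a test, and how many of all genes did not overlap was not counted. Called differences of at least 1 on the log2 scale were made for 2.26% of genes higher in ECs, 0.855% in dpMSCs, 3.34% in mpMSCs, 1.03% in OBs, 2.57% in CHOs and 5.44% in SMCs. The matching shares of genes lower were 2.09%, 0.477%, 2.8%, 0.176%, 1.22% and 4.4%. Among the members, only *Socs3* and *Lifr* reached this size in a main class with the main filter.

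**Figure D2:**
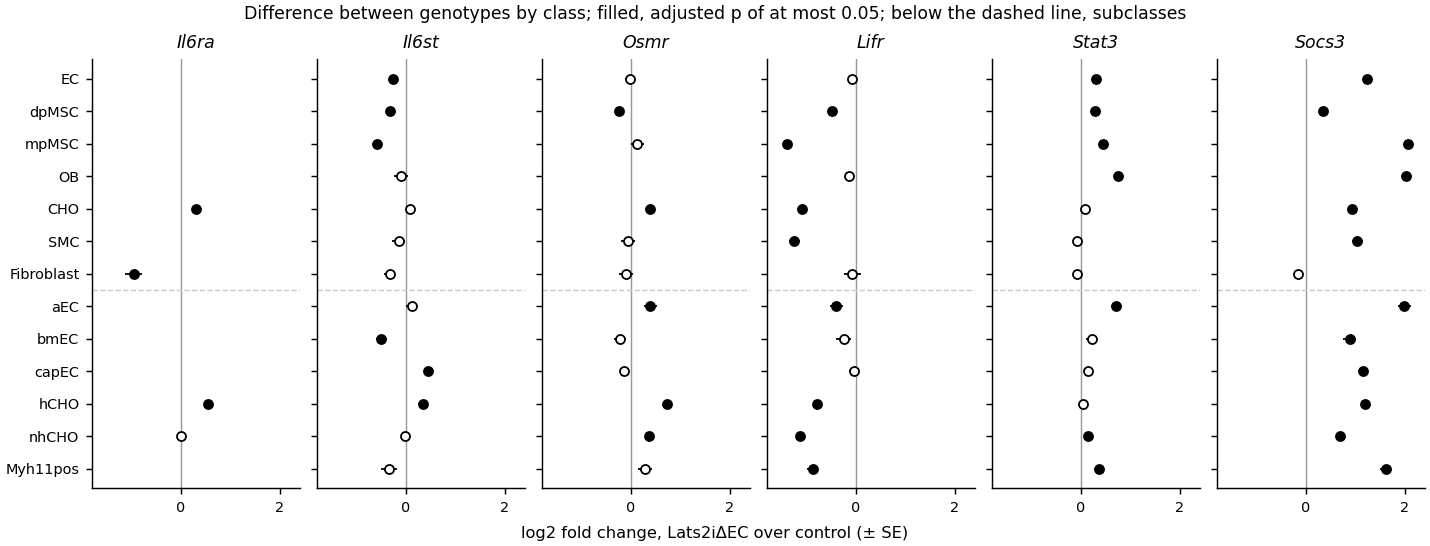
Log2 fold change, *Lats2*iΔEC over control, with its standard error, for the 6 members expressed widely enough to be tested, by class (vertical axis) with subclasses below the dashed line. Filled points have an adjusted p of at most 0.05 and open points do not, and *Socs3* lies to the right of 0 in every class shown except fibroblasts, whose direction turned (0.33) under a stricter gate that drops cells with 2 or more counts of each of at least 3 markers of another class.

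*Socs3*, the feedback inhibitor, rose in 6 of the 7 main classes. In mpMSCs the mutant libraries had 464 and 444 CPM and the controls 119 and 112, a log2 difference of 2.07 (SE 0.08, adjusted p = 5.4e-09). In OBs they had 205 and 173 CPM against 44.0 and 48.1, a difference of 2.02 (SE 0.09, adjusted p = 1.8e-12). The mutant values of both classes lay more than 3 times above the highest control value.

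In ECs *Socs3* was 296 and 272 CPM in mutants and 123 and 130 in controls, a log2 difference of 1.24 (SE 0.08, adjusted p = 6.0e-08). In CHOs it was 572 and 552 CPM against 298 and 333, a difference of 0.92 (SE 0.06, adjusted p = 4.3e-08). In SMCs it was 192 and 181 CPM against 98.7 and 84.4, a difference of 1.04 (SE 0.11, adjusted p = 1.6e-06). The genotypes did not overlap in any of these 3 classes.

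dpMSCs, the adipocyte-like stromal cells of the marrow shaft, changed least among the classes that rose, with 420 and 331 CPM in mutants against 316 and 288 in controls (0.35, SE 0.08, adjusted p = 1.6e-03). This difference was no longer called without mutant replicate 1 (0.17, adjusted p = 0.0512) and with no gene filter (0.27, adjusted p = 0.215). Fibroblasts had 200 and 206 CPM in mutants and 220 and 250 CPM in controls, a difference of -0.15 that was not called (SE 0.10, adjusted p = 0.42). With a stricter gate, which drops cells with 2 or more counts of each of at least 3 markers of another class, the direction in fibroblasts turned, to 0.33. The effect of genotype on *Socs3* differed between the 7 classes (class-by-genotype terms in edgeR, adjusted p = 1.31e-09, where 57.9% of genes passed this test).

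Set against all genes tested, *Socs3* in OBs ranked 5 from the highest of 6238 fold changes. It ranked 29 of 6076 in mpMSCs, 83 of 5893 in ECs, 216 of 6957 in CHOs and 451 of 5027 in dpMSCs. In SMCs it ranked 262 of 5094.

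Within the endothelium the rise was largest in aECs, where *Socs3* was 374 and 316 CPM in mutants and 86.1 and 97.4 CPM in controls (1.99, SE 0.13, adjusted p = 2.4e-20). capECs had 245 and 252 CPM against 117 and 116 (1.16, SE 0.09, adjusted p = 5.9e-07), and bmECs had 314 and 264 CPM against 159 and 170 (0.88, SE 0.13, adjusted p = 1.7e-04). The 3 endothelial effects differed from each other (adjusted p = 0.00227, where 6.35% of genes passed). Of the 5 members tested in aECs 4 were called (3 higher, 1 lower), against 15.6% of genes higher and 15.7% lower. In capECs 2 were called higher (22.6% of genes higher, 23.1% lower), and in bmECs 1 was called each way (15.2% and 15.6%).

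Among chondrocytes, hypertrophic cells (hCHOs, gated on *Col10a1* and *Ihh* among others) had 659 and 640 CPM of *Socs3* in mutants against 271 and 318 in controls (1.20, SE 0.08, adjusted p = 9.1e-08). Non-hypertrophic cells (nhCHOs) had 496 and 473 CPM against 312 and 342 (0.69, SE 0.05, adjusted p = 4.6e-08). The rise was larger in the hypertrophic cells (test of the difference, adjusted p = 2.38e-04, where 20% of genes passed). Of the 6 members tested, 5 were called in hCHOs, 4 higher and 1 lower, against 25.8% of genes higher and 24.9% lower, and 4 in nhCHOs, 3 higher and 1 lower, against 26.3% and 23.4%. hCHOs made up 47.3% and 47.2% of CHOs in mutants and 29.7% and 29.2% in controls.

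The SMC class was not made of the same cells in both genotypes. Cells without a count of *Myh11*, the smooth muscle myosin, numbered 215 and 244 in mutants and 3 and 11 in controls, too few to compare. Among cells with *Myh11*, *Socs3* was 281 and 269 CPM in mutants and 99.4 and 83.2 CPM in controls (1.61, SE 0.11, adjusted p = 4.4e-08), a larger difference than in all SMCs. In these *Myh11*-positive cells 3 of 5 members were called, 2 higher and 1 lower, against 13.4% of genes higher and 14.8% lower.

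The share of cells with a *Socs3* count moved with the level when every cell was thinned to 2000 UMIs. In mpMSCs it was 32.1% and 36.6% in mutants against 16.9% and 14.6% in controls, and in OBs 22.1% and 18.9% against 7.79% and 7.97%. In fibroblasts it was 24.2% and 25.3% against 23.9% and 25.1%. Erythroid-gated cells, in which the transcript was low but which may express it, had 4.0% and 5.12% in mutants and 2.22% and 2.26% in controls. Before thinning, the shares in mpMSCs were 53.4% and 58.8% in mutants (median UMIs 7227 and 6869) and 38.9% and 36.4% in controls (8386 and 8435), and those in erythroid cells lay between 7.31% and 10.6% (median UMIs 4612 to 7729). Thinning left out between 8 and 14 mpMSCs and between 4 and 17 erythroid cells per library.

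Immediate early genes, which can be induced when tissue is digested, moved with genotype in the same classes, while the heat shock genes *Hspa1a* and *Hspa1b* did not do so in all of them. The summed level over 14 genes (*Fos*, *Fosb*, *Jun*, *Egr1*, *Atf3*, *Ier2*, *Ier3*, *Hspa1a*, *Hspa1b*, *Dusp1*, *Nr4a1*, *Zfp36*, *Btg2* and *Gadd45b*) was 4880 and 4961 CPM in mutant mpMSCs against 1426 and 1341 in controls. It was 3191 and 3033 against 1579 and 1554 CPM in OBs, 5823 and 5543 against 4015 and 3851 in ECs, and 4461 and 3697 against 2119 and 1973 in dpMSCs. CHOs had 11226 and 10959 against 8549 and 8970 CPM, and SMCs 5425 and 5762 against 4571 and 4137.

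Among the subclasses the sum was 9097 and 8944 CPM in mutant aECs against 4598 and 4281 in controls, 4383 and 4407 against 3576 and 4024 in bmECs, and 4514 and 4263 against 4027 and 3424 in capECs. In *Myh11*-positive SMCs it was 8343 and 8496 CPM against 4585 and 4156, and in hCHOs 12405 and 11863 against 7912 and 8672. The subclass of ECs with the largest rise of *Socs3*, the aECs, thus also had the largest rise of the sum.

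Fibroblasts, in which *Socs3* was not called, had 3539 and 4074 CPM of the 14 genes in mutants against 3997 and 4408 in controls. Leukocyte-gated barcodes had 3097 and 3697 CPM of the 14 genes in mutants against 6318 and 5390 in controls, lower in both mutant libraries. Of these genes, 14 of 14 were called higher in mpMSCs (median log2 fold change 1.96), 13 of 14 in OBs (0.75) and 10 of 11 tested in dpMSCs (1.05). In ECs 12 were higher and 2 lower (0.70), in CHOs 11 and 2 (0.60), in SMCs 11 and 2 (0.37), and in fibroblasts 1 and 3 (-0.02). The 2 genes called lower in ECs, CHOs and SMCs were *Hspa1a* (-0.49, -1.10 and -0.54) and *Hspa1b* (-0.82, -1.78 and -0.55), which were both called higher in mpMSCs (1.32 and 0.90). In fibroblasts they were called lower as well (-0.83 and -1.0). These 2 genes are near-identical, so the split of reads between them is uncertain. The medians of all genes tested lay within 0.01 of 0. Empty droplets also held more *Socs3* in mutants, at 445 and 424 CPM against 173 and 178. The part of the 14 genes in the *Socs3* result was not tested, nor whether they rose in the tissue or during its digestion.

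**Figure D3:**
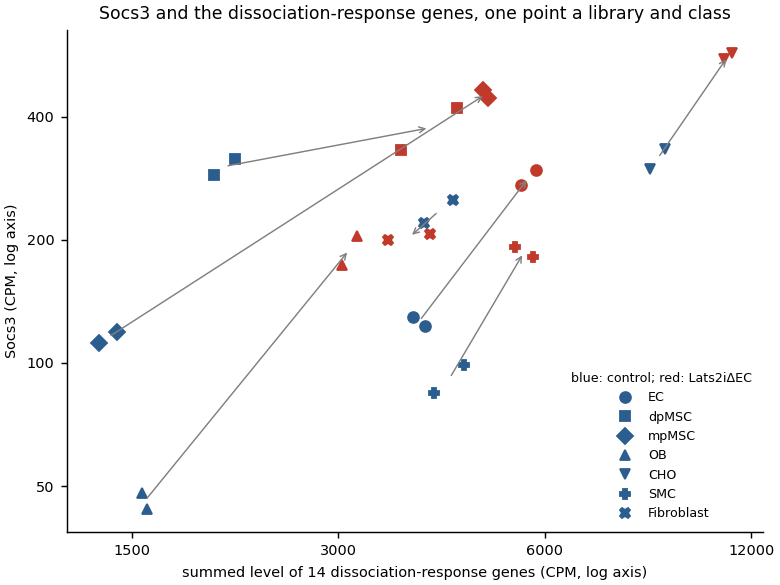
Level of *Socs3* (vertical axis, CPM, log scale) against the summed level of the 14 dissociation-response genes (horizontal axis, CPM, log scale), with 1 point per library and class (blue, control; red, *Lats2*iΔEC) and arrows from the control to the mutant mean. Both quantities are higher in mutants in 6 classes, and fibroblasts, where *Socs3* was 200 and 206 CPM against 220 and 250, move slightly the other way.

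*Lifr* fell in mutants in mpMSCs, where it was highest, and also in CHOs, SMCs and dpMSCs. In mpMSCs it was 1262 and 1379 CPM in mutants against 3767 and 3701 in controls, a log2 difference of -1.40 (SE 0.07, adjusted p = 2.8e-08). At 2000 UMIs per cell, 61.0% and 63.1% of mutant mpMSCs had a *Lifr* count against 91.3% and 93.7% of control mpMSCs, and between 1.62% and 3.81% of erythroid cells. Without thinning, the shares were 81.4% and 81.2% in mutants and 97.0% and 98.6% in controls. The mutant mpMSCs still held more *Lifr* than the other 6 main classes of mutants.

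In CHOs *Lifr* was 81.8 and 78.9 CPM in mutants and 186 and 181 in controls (-1.10, SE 0.04, adjusted p = 1.2e-09). In SMCs it was 88.6 and 77.1 CPM against 206 and 190 (-1.24, SE 0.10, adjusted p = 2.5e-07), and in *Myh11*-positive SMCs alone 115 and 100 CPM against 206 and 194 (-0.87, SE 0.11, adjusted p = 2.8e-05). In dpMSCs it was 459 and 480 CPM against 690 and 656 (-0.48, SE 0.05, adjusted p = 8.9e-07). No mutant value reached a control value in these classes.

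ECs (197 and 191 CPM against 229 and 203), OBs (558 and 661 against 694 and 647) and fibroblasts (26 and 36.0 against 35.7 and 32.7) were not called for *Lifr*. In aECs alone it was 180 and 166 CPM against 247 and 232 (-0.39, SE 0.13, adjusted p = 0.011), a call lost in 5 of 10 alternatives. The effect differed between classes (adjusted p = 1.26e-08). It fell in both chondrocyte groups, by 1.13 in nhCHOs and by 0.79 in hCHOs on the log2 scale, and the pair differed (adjusted p = 0.0333). Counted from the lowest fold change, *Lifr* ranked 65 of 6076 genes in mpMSCs and 66 of 6957 in CHOs. Empty droplets had 140 and 139 CPM of *Lifr* in mutants and 323 and 323 in controls, the same direction as the cells.

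*Il6st* changed in opposite directions within the endothelium. In bmECs, its highest group, it was 863 and 992 CPM in mutants and 1385 and 1364 in controls (-0.50, SE 0.10, adjusted p = 2.5e-03). In capECs it was 644 and 612 CPM in mutants and 505 and 457 in controls (0.45, SE 0.08, adjusted p = 4.7e-04). In aECs it was 227 and 255 CPM against 256 and 216, and was not called (0.11, adjusted p = 0.53). The 3 effects differed (adjusted p = 0.00143).

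Over all ECs *Il6st* was 566 and 581 CPM in mutants and 737 and 709 in controls (-0.26, SE 0.05, adjusted p = 9.7e-04), and the genotypes did not overlap. The mix of ECs moved as well: bmECs were 19.0% and 17.1% of ECs in mutants and 32.9% and 31.1% in controls, while capECs were 45.8% and 47.6% against 35.8% and 36.5%. With the stricter gate the difference in ECs was -0.13 and was not called (adjusted p = 0.092). At 2000 UMIs per cell an *Il6st* count was found in 71.5% and 70.8% of mutant bmECs against 77.5% and 79.5% of control bmECs, and in 50.3% and 51.8% of mutant capECs against 44.5% and 45.7% of control capECs.

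**Figure D4:**
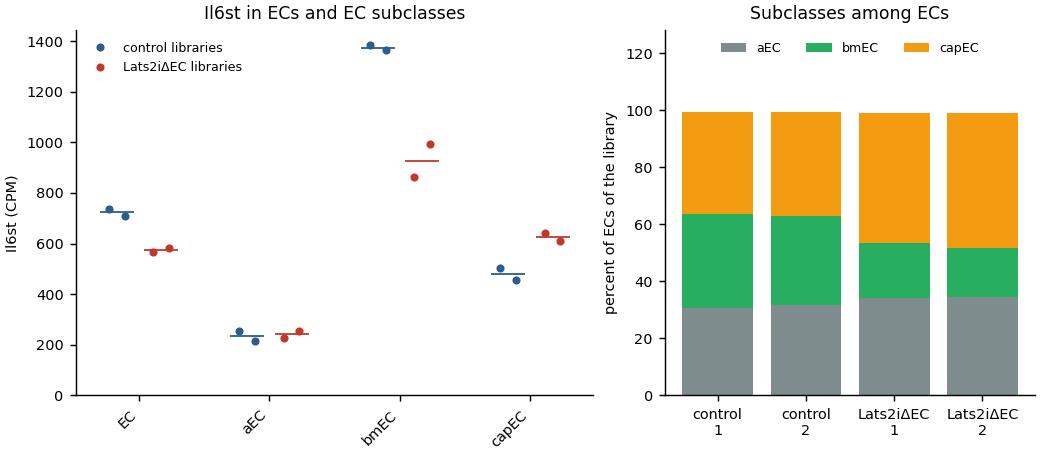
Left, level of *Il6st* (CPM) in all ECs and in arterial (aEC), bone marrow (bmEC) and capillary-like (capEC) ECs, 1 point per library with a line at the mean of each genotype (blue, control; red, *Lats2*iΔEC). Right, share of each library's ECs in the 3 groups (percent); bmECs, with the highest *Il6st*, are 32.9% and 31.1% of control ECs and 19.0% and 17.1% of mutant ECs.

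Outside the endothelium *Il6st* fell in both mesenchymal stromal classes. It was 98.4 and 97.0 CPM in mutant mpMSCs against 158 and 156 in controls (-0.59, SE 0.08, adjusted p = 7.3e-05), and 147 and 156 CPM in mutant dpMSCs against 194 and 198 (-0.33, SE 0.07, adjusted p = 5.3e-04). In CHOs it was 63.0 and 63.5 CPM against 62.7 and 64.7 and was not called, although hCHOs alone had 63.0 and 64.9 CPM against 56.7 and 48.9 (0.33, SE 0.09, adjusted p = 6.6e-03), a call lost without control replicate 2, with no gene filter and in DESeq2. OBs, SMCs and fibroblasts were not called. The effect differed between the 7 classes (adjusted p = 0.000991), but without control replicate 1 or 2 this test gave adjusted p = 0.0875 and 0.0740.

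*Osmr* rose in CHOs from 90.0 and 88.9 CPM in controls to 107 and 112 in mutants (0.39, SE 0.04, adjusted p = 1.2e-05), with the larger difference in hCHOs (55.7 and 59.2 to 86.5 and 95.8 CPM, 0.72, adjusted p = 1.0e-05) than in nhCHOs (107 and 104 to 125 and 126 CPM, 0.37, adjusted p = 2.7e-05; difference between the pair, adjusted p = 0.0231). It fell in dpMSCs from 140 and 131 to 107 and 115 CPM (-0.25, SE 0.07, adjusted p = 0.011), a call lost without mutant replicate 1, without control replicate 1 and in DESeq2. In ECs it had 168 and 140 CPM in mutants against 166 and 163 and was not called. In aECs it was called higher, at 260 and 207 CPM against 199 and 177 (0.39, SE 0.13, adjusted p = 0.015), and the call was lost in 6 of 10 alternatives. OBs held too little for the test.

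*Il6ra* fell in fibroblasts, the class with the highest level, from 50.7 and 46.9 CPM to 19.4 and 28.4 (-0.96, SE 0.17, adjusted p = 0.016), and with the stricter gate it was not called (-0.55, adjusted p = 0.263). It rose in hCHOs from 26.6 and 26.1 to 36.8 and 37.7 CPM (0.55, SE 0.10, adjusted p = 5.0e-04), while nhCHOs had 23.4 and 24.2 CPM against 25.5 and 26 and were not called. The pair differed (adjusted p = 0.0137). In SMCs, where the expression filter alone let it be tested, it was 7.16 and 5.83 CPM against 11.4 and 16.3 (-1.05, SE 0.32, adjusted p = 0.025), and in *Myh11*-positive SMCs 12 and 10.1 CPM against 11.4 and 16.3, which overlapped. With that filter *Il6ra* was not called in ECs (0.64, adjusted p = 0.061), mpMSCs (1.10, adjusted p = 0.091) or dpMSCs (0.04, adjusted p = 0.96). In CHOs as a whole the difference was 0.31 (29.6 and 30.6 CPM against 25.9 and 26, adjusted p = 1.4e-03).

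*Stat3*, which carries the signal to the nucleus, rose in 4 main classes, and its changes were smaller than those of *Socs3*. It was 119 and 145 CPM in mutant OBs against 80.3 and 77.7 in controls (0.75, SE 0.09, adjusted p = 4.7e-06), and 227 and 236 CPM in mutant mpMSCs against 192 and 171 (0.45, SE 0.08, adjusted p = 9.0e-04). In ECs the values were 337 and 351 CPM against 295 and 292 (0.30, SE 0.06, adjusted p = 1.2e-03), and in dpMSCs 363 and 342 against 303 and 295 (0.28, SE 0.06, adjusted p = 7.0e-04), where the call was lost with no gene filter (0.2, adjusted p = 0.0741). The genotypes did not overlap in these 4 classes.

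Among ECs the rise of *Stat3* was called in aECs, at 387 and 447 CPM against 265 and 272 (0.71, SE 0.11, adjusted p = 1.3e-07), and not in bmECs or capECs. The 3 endothelial effects differed (adjusted p = 0.0229). CHOs had 258 and 270 CPM against 267 and 268, and SMCs and fibroblasts were likewise not called. *Myh11*-positive SMCs alone had 244 and 253 CPM against 202 and 189 (0.37, SE 0.10, adjusted p = 9.3e-03), a call lost in DESeq2. In nhCHOs a difference of 0.14 was called (adjusted p = 0.022) and was lost in 7 of 10 alternatives. The effect on *Stat3* differed between the 7 classes (adjusted p = 1.54e-04).

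*Il6* was found in few cells of the SMC and EC classes and in cells with basophil genes. In all 7 main classes it was counted in under 20% of cells, so the tests of *Il6*, *Il11* and *Lif* used edgeR's expression filter alone. In SMCs there were 52.5 and 60.8 CPM in mutants (176 counts in 28 cells and 240 counts in 42 cells) against 22.7 and 8.15 CPM in controls (38 counts in 13 cells and 14 counts in 3 cells). The log2 difference was 1.94 (SE 0.26, adjusted p = 4.6e-05), where 15.5% of genes were called higher and 13.8% lower. In *Myh11*-positive SMCs alone *Il6* was 65.1 and 84.2 CPM against 22.9 and 8.44 (2.32, SE 0.28, adjusted p = 9.5e-05, with 7.16% of genes higher and 5.68% lower). This difference was 3.19 without control replicate 1 and 1.78 without control replicate 2. The genotypes did not overlap. SMCs without a count of *Myh11* had a mean of 40.3 CPM of *Il6* in mutants. In controls the mean was 0, from only 3 and 11 such cells, too few to compare. The paper regards *Myh11*-negative cells of this class as likely myofibroblasts.

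In ECs *Il6* was 16 and 18.6 CPM in mutants against 5.26 and 8.35 in controls (1.44, SE 0.23, adjusted p = 8.1e-04, where 18.5% of genes were called higher and 17.4% lower). Arterial ECs held most of it, with 41.4 and 36.2 CPM (14 and 22 cells) against 19.4 and 16.3 CPM (14 cells in each library; 1.21, SE 0.23, adjusted p = 1.3e-03, where 9.57% of genes were called higher and 7.9% lower). capECs had 6.44 and 9.23 CPM against 0.40 and 2.62, from 17 and 33 counts against 1 and 6 (2.50, SE 0.57, adjusted p = 8.7e-03, with 14.2% of genes higher and 13% lower), and without mutant replicate 2 this was not called (adjusted p = 0.122). Without control replicate 2 it was 4.25 and without control replicate 1 it was 1.69. The calls in ECs, aECs and all SMCs held with each library left out in turn, with log2 differences between 1.14 and 1.81 in ECs and between 1.38 (without control replicate 2) and 2.83 (without control replicate 1) in SMCs. mpMSCs had 16 and 6 counts of *Il6* in mutants and 1 and 2 in controls, which did not pass the expression filter with all 4 libraries. It passed with some libraries left out and was then called higher: by 4.5 without mutant replicate 2 (adjusted p = 1.83e-06), 3.42 without control replicate 1 (adjusted p = 0.0157) and 4.27 without control replicate 2 (adjusted p = 0.00767). bmECs had 2.93 and 22.4 CPM against 0.49 and 8.38 and were not called (1.58, adjusted p = 0.25), but the difference was 2.38 without mutant replicate 1 (adjusted p = 7.49e-05), -0.51 without mutant replicate 2 (adjusted p = 0.799) and 4.52 without control replicate 2 (adjusted p = 0.00792). Empty droplets had less *Il6* in mutants (10.3 and 9.9 CPM) than in controls (22.9 and 17.6 CPM), the opposite direction.

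Barcodes gated as leukocytes, which the depletion had left behind, held most of the *Il6* counts of the control libraries: 82.6% and 79.1% of those in all filtered barcodes, unassigned ones included, against 30.3% and 32.4% in mutants. SMCs held 33.5% and 32.5% of the counts in mutants and 4.49% and 1.93% in controls. The leukocyte gate held 42 and 48 barcodes in mutants and 129 and 121 in controls, so fewer such barcodes remained in the mutant libraries after depletion. Whether the bone itself held fewer was not tested. *Il6* in this gate was 269 and 385 CPM in mutants and 507 and 428 in controls and was not called (-0.46, SE 0.21, adjusted p = 0.38).

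The leukocyte barcodes expressed *Mcpt8*, *Prss34* and *Cpa3*, protease genes of basophils and mast cells, at 5622, 9043 and 1434 CPM, while *Ctss* and *Cd74*, genes of antigen-presenting cells, were at 4.07 and 14 CPM. Split by a count of *Mcpt8*, a division chosen after the values were seen, the barcodes with it had 648 and 745 CPM of *Il6* in mutants and 663 and 677 in controls. These were 20 and 27 barcodes in mutants and 94 and 80 in controls. Barcodes without *Mcpt8* had 5.74 and 6.60 CPM in mutants and 63.8 and 2.02 CPM in controls. Among barcodes with *Mcpt8* the CPM of the genotypes overlapped, and the number of such barcodes differed.

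**Figure D5:**
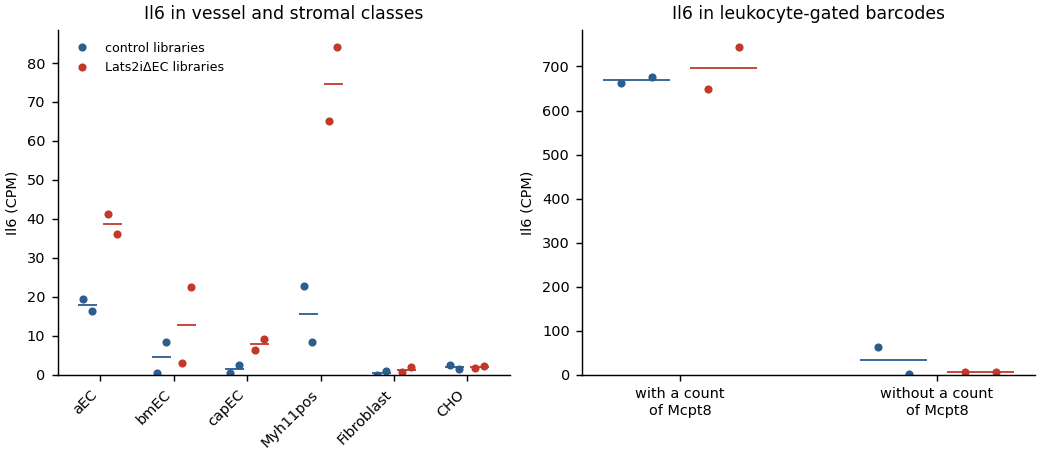
Level of *Il6* (CPM) with 1 point per library and a line at the mean of each genotype (blue, control; red, *Lats2*iΔEC): left, in arterial, bone marrow and capillary-like ECs, *Myh11*-positive SMCs, fibroblasts and CHOs; right, in leukocyte-gated barcodes with and without a count of *Mcpt8*. The axes differ in scale: *Myh11*-positive SMCs reach 84.2 CPM, while *Mcpt8*-positive barcodes lie between 648 and 745 CPM in all 4 libraries.

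*Il11*, which signals through gp130 with its own receptor, was counted in CHOs and fibroblasts, and in hCHOs 1 cell held most of its counts in each of the 4 libraries. Unassigned barcodes, which took no part in the comparisons, held 11.3% and 40.3% of the *Il11* counts in mutants and 20.4% and 34.7% in controls. In hCHOs it was 9.09 and 12.6 CPM in mutants against 41.4 and 14.8 in controls, which edgeR called lower (-1.34, SE 0.36, adjusted p = 0.017, where 18.5% of genes were called higher and 16.6% lower). In control replicate 1, however, 190 of 243 counts came from 1 cell. Without the cell with the most counts in each library the values were 3.20 and 6.21 CPM against 9.04 and 3.58, and the difference of -0.39 was not called (adjusted p = 0.498). In the same way the difference in all CHOs turned from -0.49 to 0.39, neither called, and that in nhCHOs was 1.23 and was called (adjusted p = 0.0164). In nhCHOs it was 5.05 and 3.24 CPM against 3.01 and 1.25 (1.06, SE 0.36, adjusted p = 0.042, with 19% of genes higher and 15.6% lower), a call lost without mutant replicate 1, control replicate 1 or control replicate 2 (for 1 library at a time). In ECs mutant replicate 1 had 108 counts, 71 of them in 1 cell, and the other 3 libraries had between 1 and 5. Fibroblasts had 23.7 and 18.9 CPM against 6.07 and 26, which overlapped. Single libraries decided these results too: without control replicate 2 the difference was 1.90 in fibroblasts (adjusted p = 0.0172; 0.46 with all libraries, not called) and -1.04 in CHOs (adjusted p = 1.2e-05; -0.49, not called). In ECs *Il11* was called at 3.60 to 4.83 in the 3 fits that kept mutant replicate 1 and left out another library.

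*Lif*, the ligand of the receptor that fell in mpMSCs, was near the limit of detection. mpMSCs had 12 and 7 counts in mutants (5.73 and 2.65 CPM) and 5 and 4 in controls (1.10 and 0.86 CPM), which did not pass the expression filter with all 4 libraries. With 1 library left out at a time it was tested, with differences between 1.49 and 2.59, called without mutant replicate 2 alone (adjusted p = 0.00468). CHOs had 1.26 and 1.34 CPM in mutants and 1.23 and 1.32 CPM in controls from 22 to 29 counts a library, and no difference was detectable at this depth (0.09, adjusted p = 0.83). ECs had 0 to 2 counts a library.

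The rest of the pathway was read from lists of genes, given here as counts beside the percentages above. Of 16 genes known to respond to STAT3, 8 were called higher and 1 lower of 9 tested in mpMSCs (median log2 fold change 1.39). In ECs 7 were higher and 2 lower of 10 (0.69), in CHOs 9 higher and none lower of 11 (0.74), in OBs 5 higher and none lower of 6 (1.13), and in SMCs 6 higher and 1 lower of 7 (1.47). In dpMSCs 7 were higher and 2 lower of 12 (0.34), and in fibroblasts 1 was higher of 10 (0.19). *Pim1*, a kinase gene, rose by 1.83 in mpMSCs, 1.36 in ECs and 1.75 in CHOs. *Junb*, an AP-1 subunit, rose by 2.87 in mpMSCs and 1.49 in OBs. The C/EBP factor *Cebpb* rose by 1.95 in CHOs and 1.91 in SMCs (2.56 in *Myh11*-positive SMCs alone). The largest called difference of this list in SMCs was that of *Timp1* (3.06), and *Pim3* rose by 2.71 in mpMSCs. The members called lower were *Hp*, the haptoglobin gene, in mpMSCs (-1.60), *Lrg1* and *Il4ra* in ECs (-0.47 and -0.29), *Serpina3n* and *Bcl3* in dpMSCs (-0.36 and -0.35) and *Bcl6* in SMCs (-0.65). *Junb*, *Cebpb* and *Myc* of this list are also known as early stress-response genes.

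Of 14 kinase, phosphatase, STAT and SOCS genes, 6 were called higher and 4 lower of 10 tested in CHOs, 2 and 4 of 8 in ECs, 0 and 4 of 9 in mpMSCs and 0 and 3 of 9 in dpMSCs. In OBs 2 were higher and none lower of 9, in SMCs 1 higher and 2 lower of 5, and in fibroblasts none was called of 8. *Stat5b* was called lower in mpMSCs (-0.66), ECs (-0.55), CHOs (-0.66), SMCs (-0.92) and dpMSCs (-0.28). *Jak1*, the main kinase of gp130, was called lower in ECs (-0.58) and higher in OBs (0.30), SMCs (0.28) and CHOs (0.13), and *Socs2* was called higher in ECs (0.60), CHOs (0.80) and OBs (0.37). Of 4 further receptor genes, *Cntfr* was called higher in CHOs (0.58), *Il31ra* in OBs (0.52), dpMSCs and SMCs and *Il11ra1* in CHOs and ECs (0.49 and 0.31), the last uncertain because near-identical copies of the gene share reads.

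Of 8 genes of the NF-kB response, 4 of 4 tested were called higher in CHOs, 3 of 4 in ECs, 2 of 2 in each of mpMSCs, OBs and SMCs, 2 of 5 in dpMSCs with 1 lower, and 0 of 4 in fibroblasts. These genes, the STAT3-responsive genes and the dissociation-response genes thus had most members called higher in the same 5 classes, and few or none in fibroblasts. No test separated the lists from each other.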

How the data were processed

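Droplet scRNA-seq (10x Chromium, V3 chemistry) was performed on 4 libraries, 2 *Lats2*iΔEC and 2 control. The deposited values are expected counts: the authors trimmed reads with cutadapt 3.5 and counted UMIs over exons and introns with STARsolo 2.7.10a on GRCm39 (mm39 in the submitters' processing notes) with GENCODE M26, sharing UMIs of multi-gene reads by expectation maximisation, and deposited unfiltered matrices. Barcodes with at least 1000 UMIs, at least 800 features, under 15% mitochondrial and under 5% hemoglobin counts and a complexity above 0.8 were kept, following the study. No doublet caller was run; a stricter gate that drops barcodes with at least 2 counts of each of at least 3 markers of a second class (3938 of 20039; 9257 have at least 3 such markers at any count) served as an alternative. Each barcode took the class of its highest mean z-scaled marker score with at least 3 markers detected and a lead of 0.3. Counts were summed per library and class, rounded and tested with edgeR 4.0.16 (R 4.3.3; TMM scaling, quasi-likelihood test, Benjamini-Hochberg adjustment over all genes tested in a class). DESeq2 1.42.0, RLE scaling, library totals, other filters and gates, Leiden clusters (leidenalg 0.10.2), subtraction of free RNA, a replicate block and leaving out each library were tried as alternatives. Genotype effects were compared between classes by class-by-genotype terms in 1 edgeR fit with library as a block, and class levels in the controls with library as a block. CPM are summed counts over the class total. Each SE of an edgeR fit was taken as the absolute log2 fold change divided by the square root of the quasi-likelihood F statistic. Empty droplets are barcodes with 10 to 99 UMIs. All 9 members were named, though the text leaves out some classes, mostly for the cytokines and *Il6ra*. Each other list was given with at most 4 examples, those with the largest called difference (a few others, such as the STAT3-responsive genes called lower, were named after their values were seen). The 3 genes most alike to each non-cytokine member were named as well. The members and lists were chosen with earlier results of these data known. Motifs were searched in the 250 bases before the canonical start on GRCm39. Of the RefSeq promoter table's windows, which are on another build, none was used.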

Additional observations from a re-analysis of the deposited data

Results flagged for a closer look

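The effect of genotype differed between cell classes for all 6 members tested with the main gene filter. Over the 7 main classes the class-by-genotype test gave adjusted p = 1.31e-09 for *Socs3*, 1.26e-08 for *Lifr*, 7.19e-05 for *Il6ra*, 0.000154 for *Stat3*, 0.000991 for *Il6st* and 0.00802 for *Osmr*, where 57.9% of 9086 genes passed. With the expression filter alone this test gave adjusted p = 0.0171 for *Il6*, 0.191 for *Il11* and 0.22 for *Lif*, where 6243 of 16988 genes passed. Differences between classes were thus common among all genes, and *Osmr* gave adjusted p = 0.0664 without control replicate 1.

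Between arterial, bone marrow and capillary-like ECs the test gave adjusted p = 0.00143 for *Il6st*, 0.00227 for *Socs3*, 0.0229 for *Stat3* and 0.0405 for *Osmr*, where 6.35% of genes passed. Between hypertrophic and non-hypertrophic CHOs it gave 0.000238 for *Socs3*, 0.0137 for *Il6ra*, 0.0231 for *Osmr* and 0.0333 for *Lifr*, where 20% passed. *Il6st* in bmECs and capECs is the pair in which called effects had opposite signs, -0.50 and 0.45. Tests within ECs and CHOs were added after the data were seen. Whether these differences come from the cells of a class or from the mix of cells within it was not tested.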

How the results depend on the processing

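Of 41 differences between genotypes called with the main gene filter, 31 stayed called under every alternative run, 10 were lost under at least 1 and none changed sign. Of 7 calls of *Il6* and *Il11* with the expression filter alone, 3 were lost under at least 1 alternative. These 7 calls were refitted only with each library left out and, for *Il11*, also without the cell with the most counts in each library. Calls in subclasses were not rerun with the stricter gate, other barcode filters, Leiden clusters or free RNA subtracted. The number of called members moved by more than 1.5 times as follows. With no gene filter it was 6 in ECs (from 3), 3 in dpMSCs (from 5), 4 in SMCs (from 2) and 4 in capECs (from 2), and with edgeR's expression filter alone it was 4 in SMCs. In fibroblasts it was 0 in DESeq2, 0 with the stricter gate and 3 with Leiden clusters (from 1), and DESeq2 gave no adjusted p for *Il6ra* there. In aECs it was 2 in DESeq2 (from 4). With libraries left out it ranged from 3 to 5 in dpMSCs, lowest without mutant replicate 1, and from 2 to 3 in aECs, where *Lifr* and *Osmr* were lost. The causes were not tested.

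Uncalled log2 differences changed sign in these cases. With the stricter gate they were 0.11 for *Lifr* in ECs, 0.02 for *Il6st* in OBs, 0.02 for *Lifr* in OBs, 0.02 for *Osmr* in SMCs and 0.33 for *Socs3* in fibroblasts. With Leiden clusters *Lifr* was 0.05 in OBs and 0.01 in fibroblasts, and with free RNA subtracted 0.06 in fibroblasts. With library totals *Il6st* was -0.01 and *Stat3* -0.02 in CHOs, and with no gene filter *Osmr* was 0.02 and *Stat3* 0 in SMCs. With libraries left out, *Osmr* ranged from -0.16 to 0.1 in ECs, from -0.1 to 0.3 in mpMSCs, from -0.28 to 0.22 in SMCs and from -0.29 to 0.05 in fibroblasts, *Lifr* from -0.16 to 0.01 in ECs and from -0.32 to 0.12 in fibroblasts, and *Il6st* from -0.33 to 0.15 in OBs.

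Replicate numbers did not pair the libraries: deviations of same-numbered libraries correlated between -0.096 and 0.08. With a replicate block the called members stayed at 3 in ECs, 5 in dpMSCs, 4 in mpMSCs and 2 in OBs, and no class count moved. With 1 to 24 counts of *Lif* or *Il6* a library in mpMSCs, and of *Il6* in bmECs, single libraries decided whether a difference was called.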

Other observations

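The genes whose levels were most like those of each member were taken over the 28 sums of 7 classes and 4 libraries, by Pearson's r of log2(CPM + 1) among 9743 genes. The points share libraries and classes, so the values describe these sums. *Cebpd* (0.894), *Emp1* (0.834) and *Rnf19b* (0.821) were most like *Socs3*, and *Fto* (0.936), *Lrp4* (0.924) and *Tnfrsf19* (0.903) most like *Lifr*. For *Il6st* they were *Ly6e* (0.972), *Rapgef1* (0.97) and *Git2* (0.97), for *Osmr* *Maml2* (0.976), *Swt1* (0.972) and *Phxr4* (0.969), for *Stat3* *Senp2* (0.961), *Zfp654* (0.943) and *Relb* (0.939), and for *Il6ra* *Abhd2* (0.943), *Srebf2* (0.943) and *Pfkp* (0.924).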
